A study of Phalaenopsis amabilis with 15 samples.

Results

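Among the 21144 loci of the leaf transcript table, 82 had a protein match that names a 50S or a 30S ribosomal protein, the protein types of the bacteria-like ribosomes of chloroplasts and mitochondria. A locus was taken when either name stood in its Swiss-Prot text, or in its description where no Swiss-Prot text was given, which was the case for 1 locus. Loci on the separate organelle record were left out by the rule, and none of the 46 loci there carried either name. Of the 82 loci, 57 matched a large-subunit (50S) and 25 a small-subunit (30S) protein. The match text placed 48 of them in the chloroplast (32 of 50S and 16 of 30S type), 5 in the mitochondrion and 1 in both organelles. The other 28 matches were to bacterial proteins, so no compartment was named, and the table describes all 28 of these loci as uncharacterized. In all, 38 of the 82 loci were described as uncharacterized. Among these were chloroplast-named loci, such as S1 (LOC110030231), L28 (LOC110035578), L11 (LOC110030313), S21 (LOC110026266) and L23 (LOC110018341). The table's pathway column listed 63 of the 82 under the ribosome.

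Young topmost leaves were sampled from moth orchids, labelled Phalaenopsis amabilis, and each of the 15 libraries pooled 3 plants. The study asked how leaf transcripts differ between a long and a short photoperiod. The control group (Control) was sampled at day 0 from plants given 12 h of light, at a day temperature of 28 °C and a night temperature of 25 °C. The long photoperiod groups LD_20d and LD_40d had 16 h of light and 8 h of dark for 20 and 40 days, and the short photoperiod groups SD_20d and SD_40d had 8 h of light and 16 h of dark. Humidity was 70% in all groups. In all 4 treated groups the day temperature was 25 °C and the night temperature 18 °C. A difference from Control can therefore come from time, temperature or day length, which cannot be told apart, whereas SD and LD groups of the same day differ in day length alone as far as the labels say. There were 3 libraries in each group, and the 120 plants were split evenly between the photoperiods.

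Chloroplasts and mitochondria keep ribosomes of bacterial ancestry, in which a small 30S-type subunit reads the messenger RNA and a large 50S-type subunit joins the amino acids. Most of the proteins of these ribosomes are encoded in the nucleus, translated in the cytosol and imported, while the organelle genome supplies the ribosomal RNA and a minority of the proteins. In leaves the chloroplast ribosome makes, among others, core photosystem proteins and the large subunit of Rubisco, the enzyme that fixes carbon dioxide.

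Library totals ran from 11246777 to 14637388 counts, of which the 82 loci took 0.3825% to 0.5402%. No member was without counts in all libraries, and 79 passed the filter on low counts and were tested, 45 of them chloroplast-named. The 3 untested members were an S1 locus (LOC110035320) with 5 counts over all libraries, an L18 locus (LOC110036442) with 37 and an S20 locus (LOC110018258) with 64. Among these loci LD_20d replicate 2 stood apart from the other LD_20d libraries. On the CPM scale (counts relative to the TMM-scaled library total), the 48 chloroplast-named loci summed to 2633 in that library, against 3663 and 3529 in the other LD_20d libraries and 2577 to 2709 in SD_20d. The deposited protein descriptions name P. equestris, another species of the genus, so reads of one species were counted on loci of another.

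Transcripts of chloroplast-named members were abundant. On the FPKM scale (counts relative to gene length and library total, the authors' values), which allows levels to be compared between genes, the median of the mean level over 15 libraries was 84.5 for the 48 chloroplast-named loci. The medians were 18.1 for the 28 loci with no compartment named and 16.3 for the 5 mitochondrial loci, beside 69.7 for 188 loci of cytosolic 60S and 40S ribosomal proteins and 8.58 for all 21144 loci. The 5 highest members were all chloroplast-named. L5 (LOC110025234), which binds 5S ribosomal RNA in bacteria, had a mean FPKM of 198, L28 (LOC110035578) of 192 and L11 (LOC110030313), a protein at the base of the factor-binding stalk, of 185. They were followed by L24 (LOC110029220), an early assembly protein in bacteria, and S17 (LOC110019725), a small-subunit protein that binds ribosomal RNA, with 164 each. The lowest of all was the untested S1 locus at 0.0318. In all, 70 of the 82 loci had a mean level above 10 FPKM, 41 of them chloroplast-named.

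**Figure D1:**
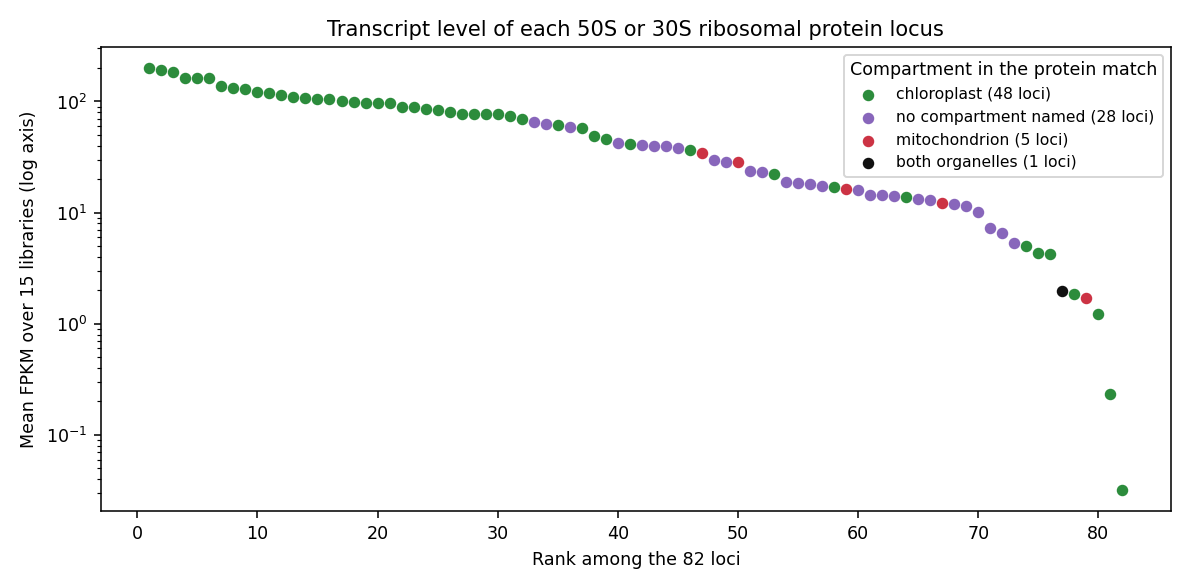
Mean FPKM over 15 libraries (log axis) of each of the 82 loci against its rank, with 1 point per locus coloured by the compartment named in its protein match. Chloroplast-named loci fill the top ranks, up to 198 FPKM, and also the lowest ranks.

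Against Control, the members were mostly lower at 20 days, and the shift was widest under the short photoperiod. In SD_20d 37 of the 79 tested members fell and 3 rose (edgeR quasi-likelihood test, Benjamini-Hochberg adjusted p under 0.05), where 35.1% of all 16700 tested loci were called (17.9% fell and 17.2% rose). The median log2 fold change was -0.38 over the members and 0.02 over all tested loci. Of the 45 tested chloroplast-named loci 32 fell and none rose, with a median of -0.68, and leaving out any 1 library gave 27 to 31 that fell. Among the 28 loci with no compartment named, 4 fell and 3 rose, with a median of -0.14. In leaf RNA, fewer cells of a type and less RNA per cell cannot be told apart.

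In LD_20d 22 members fell and 2 rose against Control, where 12.6% and 11.4% of all tested loci did, and the median of the members was -0.27. Chloroplast-named loci made up 17 of the falls and 1 of the rises (median -0.34). The count of chloroplast-named falls was 5 without LD_20d replicate 2, 9 without Control replicate 1 and 9 without Control replicate 2. The count of members called in either direction, 24, was 10 without LD_20d replicate 2 and 15 without Control replicate 1.

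By 40 days fewer members differed from Control. In LD_40d 5 fell and 3 rose, below the 13.6% and 13.9% of all tested loci, and the median was -0.12. The 8 calls were 4 without LD_40d replicate 1, LD_40d replicate 2 or Control replicate 3, and 5 without Control replicate 1 or 2. In SD_40d 21 fell and 1 rose, where 19.5% and 18.8% of all tested loci did, with a median of -0.27. Of the 45 chloroplast-named loci 14 fell and none rose in SD_40d (median -0.17), whereas 1 fell and 2 rose in LD_40d (median -0.03). The 22 calls in SD_40d were 12 without SD_40d replicate 2 or replicate 3 and 13 without Control replicate 2. The 4 comparisons with Control share its 3 libraries.

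**Figure D2:**
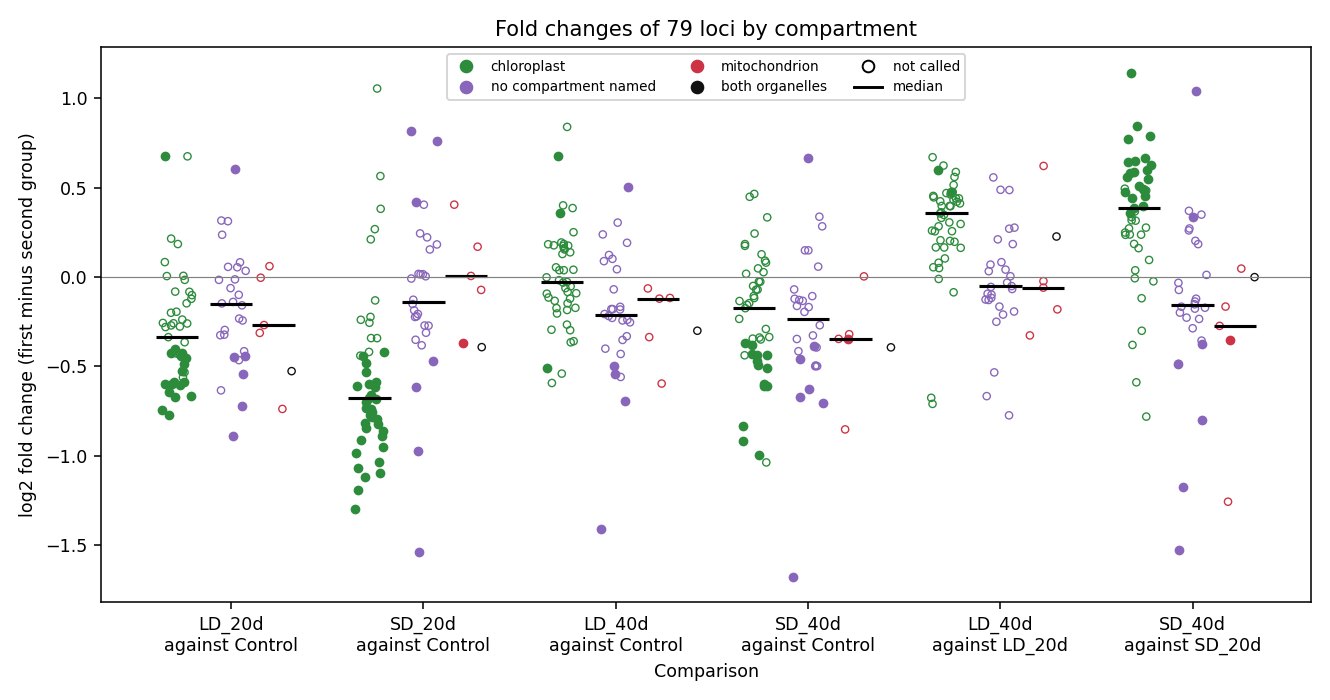
Log2 fold change of the 79 tested loci in 6 comparisons, with 1 point per locus coloured by compartment, filled where the locus was called (adjusted p under 0.05), and a bar at the median of each compartment. The chloroplast-named median is lowest in SD_20d against Control, at -0.68, and highest in SD_40d against SD_20d, at 0.38.

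From 20 to 40 days of short photoperiod, 22 of the 45 tested chloroplast-named loci rose. In SD_40d against SD_20d 24 members rose and 6 fell, where 20.1% and 20.7% of all tested loci did, and no chloroplast-named locus fell (median 0.38). Loci with no compartment named gave 2 rises and 5 falls, with a median of -0.16. The 30 calls were 17 without SD_20d replicate 2, 17 without SD_20d replicate 3 and 19 without SD_40d replicate 2, and the 22 chloroplast-named rises were 13, 13 and 15. In LD_40d against LD_20d 2 members rose and none fell, where 5.16% of all tested loci were called (2.17% rose and 2.99% fell), and DESeq2 called 13 members. The median of the chloroplast-named loci there was 0.36, close in size to that of the short photoperiod. The count of 2 calls varied with the library left out. It was 22 without LD_40d replicate 3, 6 without LD_20d replicate 1 and 1 without LD_40d replicate 2. It was 0 without LD_20d replicate 2, LD_20d replicate 3 or LD_40d replicate 1. The shares of all tested loci called with DESeq2 or with a library left out are not given here. Whether the swing is particular to the members therefore cannot be read from these counts.

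Between the photoperiods of the same day, no member passed the test. None was called in SD_20d against LD_20d or in SD_40d against LD_40d, where 0.862% and 0.461% of all tested loci were called (0.695% and 0.299% lower). At an unadjusted p under 0.05 there were 23 and 18 members, and DESeq2 called 4 and 0. Shares of all tested loci at the unadjusted p, with DESeq2 or with a library left out are not given here. The member counts under those settings therefore cannot be read as particular to the members. The median log2 difference of the 45 chloroplast-named loci was -0.32 at 20 days and -0.25 at 40 days, with 41 and 40 of them below 0, beside medians of 0.02 and -0.02 over all tested loci. Without LD_20d replicate 2, 12 members were called at 20 days, and without SD_40d replicate 1, 6 were called at 40 days. Averaged over both ages, 5 members were lower under the short photoperiod and 1 was higher, where 4.23% of all tested loci were called (2.95% lower and 1.28% higher), and 4 of the 5 were chloroplast-named. DESeq2 called 16 members in this average. The 6 calls were 18, 17 and 16 without LD_20d replicate 2, LD_40d replicate 3 or SD_40d replicate 1, 4 without SD_20d replicate 1, 1 without LD_40d replicate 2 or SD_40d replicate 2, and 0 without LD_20d replicate 1 or 3, SD_20d replicate 2 or 3, LD_40d replicate 1 or SD_40d replicate 3. No member, and no locus of the table, was called for a photoperiod by time interaction (edgeR, 1 member at an unadjusted p under 0.05, DESeq2 0 members), and without SD_40d replicate 1 there were 2.

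Summed over the 48 chloroplast-named loci, the CPM of replicates 1, 2 and 3 were 4267, 4557 and 3928 in Control and 2709, 2644 and 2577 in SD_20d. The LD_40d sums were 4723, 4327 and 3516 CPM, and the SD_40d sums 3621, 3649 and 3468 CPM. The SD_20d libraries were below all Control, LD_40d and SD_40d libraries, and LD_20d spanned the gap through its replicate 2. The 28 loci with no compartment named summed to 890 to 906 CPM in Control, 803 to 843 in LD_20d and 820 to 828 in SD_20d. At 40 days they summed to 808 to 903 CPM in LD_40d, which overlaps Control, and to 804 to 844 in SD_40d. The 5 mitochondrial loci summed to 95.2 to 125 CPM over all libraries. Of the 45 tested chloroplast-named loci, 38 had their lowest group mean in SD_20d, and the highest lay in Control for 22 and in LD_40d for 16. The matching shares of all tested loci were not computed, so these counts have no background to be set against.

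**Figure D3:**
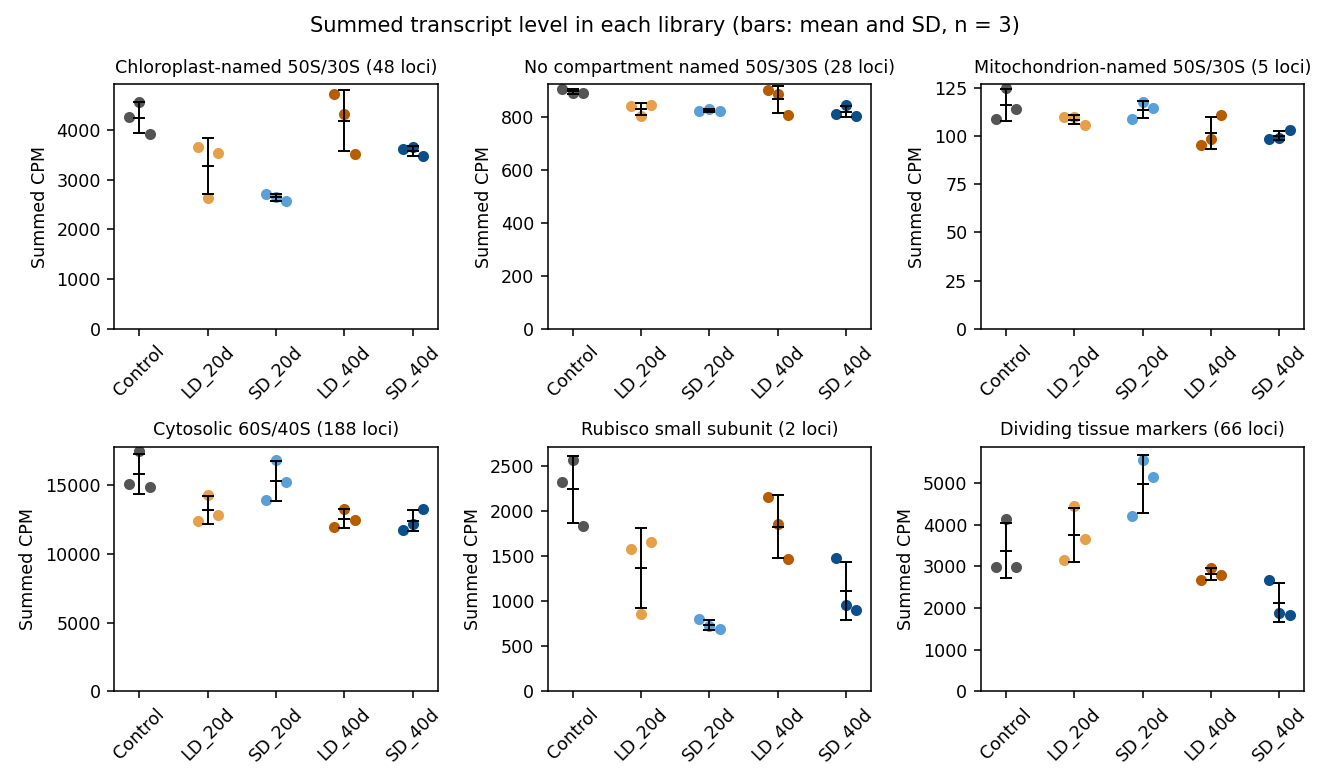
Summed CPM of 6 gene lists in each library, with 1 point per library and bars at the mean and SD (n = 3), each axis starting at 0. The chloroplast-named sum is lowest in the 3 SD_20d libraries and LD_20d replicate 2, at 2577 to 2709, while the mean of the dividing-tissue sum is highest in SD_20d.

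Markers of other cells and of leaf photosynthesis moved as well, and their part in these results was not tested. Of all tested loci, 17.2% rose and 17.9% fell in SD_20d against Control, and 20.1% rose and 20.7% fell in SD_40d against SD_20d. Of 57 tested markers of dividing tissue (histones, cyclins and replication factors, 66 listed and 2 at 0 in all libraries), 20 rose and 1 fell in SD_20d against Control (median 0.60), and 43 fell in SD_40d against SD_20d (median -1.86). Their summed CPM ran from 2984 to 4136 in Control, from 4205 to 5568 in SD_20d and from 1836 to 2661 in SD_40d. In LD_20d replicate 2 it was 4442, above the 3148 and 3663 of the other LD_20d libraries. Of 12 tested guard cell markers (14 listed, none at 0) 7 fell in SD_40d against SD_20d. Their sum did not fall with them, and ran from 96.1 to 136 CPM in SD_20d and from 122 to 133 in SD_40d. The highest sum, 325 CPM, was in LD_40d. Of 14 tested vascular markers (27 listed, 2 at 0) 7 rose and 1 fell in SD_40d against SD_20d, with sums from 463 to 982 CPM over all libraries. The sums of 19 meristem markers (3 at 0) ran from 254 to 259 CPM in Control, 279 to 376 in LD_20d and 238 to 274 in SD_20d. At 40 days they ran from 403 to 411 CPM in LD_40d and from 350 to 415 in SD_40d.

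Leaf markers were present in every library. The small subunit of Rubisco, with 2 loci, summed to 2325, 2559.7 and 1828 CPM in Control and to 801, 723 and 687 in SD_20d, and both loci fell (median log2 fold change -1.50). All 13 chlorophyll a-b binding loci, the light-harvesting antenna proteins, fell in LD_20d and in SD_20d against Control, where 12.6% and 17.9% of all tested loci did. Their medians were -2.18 and -1.47. Averaged over both ages 8 of these 13 were higher under the short photoperiod and none was lower, where 1.28% and 2.95% of all tested loci were. Their median was 0.68, which is the opposite sign to the chloroplast-named ribosomal median of -0.30. Of 21 photosystem subunits, 17 fell in LD_20d and 16 in SD_20d against Control, and none rose.

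Other parts of the translation apparatus were set beside the members. Of all tested loci, 17.9% fell and 17.2% rose in SD_20d against Control, and 20.1% rose and 20.7% fell from SD_20d to SD_40d. In LD_40d and SD_40d against Control 13.9% and 18.8% rose, and 13.6% and 19.5% fell. Of 165 tested loci for cytosolic 60S and 40S proteins, 21 fell and 6 rose in SD_20d against Control (median -0.05), and 66 fell and 4 rose in SD_40d against SD_20d (median -0.31), while the chloroplast-named median there was 0.38. Of 19 organelle translation factors, which start, extend and end protein chains, 5 fell and 3 rose in SD_20d, 7 rose and 1 fell in LD_40d and the same numbers in SD_40d, all against Control. From SD_20d to SD_40d 9 of them rose and 1 fell (median 0.48). Organelle tRNA ligases, which charge tRNA with amino acids, gave 12 rises and no fall among 33 tested loci in that comparison (median 0.27), and 9 organelle ribosome assembly factors gave 4 rises and 3 falls. Plastid transcription genes, among them sigma factors, gave 4 rises and 3 falls of 12. Chloroplast import and chaperonin genes gave 5 rises and 4 falls of 25, near the shares of all tested loci. Against Control in SD_20d the plastid transcription list gave 5 falls and 1 rise of 12, and the import and chaperonin list 11 falls and 3 rises of 25. Of 17 organelle ribosomal proteins named without 50S or 30S, 8 were tested, and 4 fell and 1 rose from SD_20d to SD_40d (median -0.33).

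**Figure D4:**
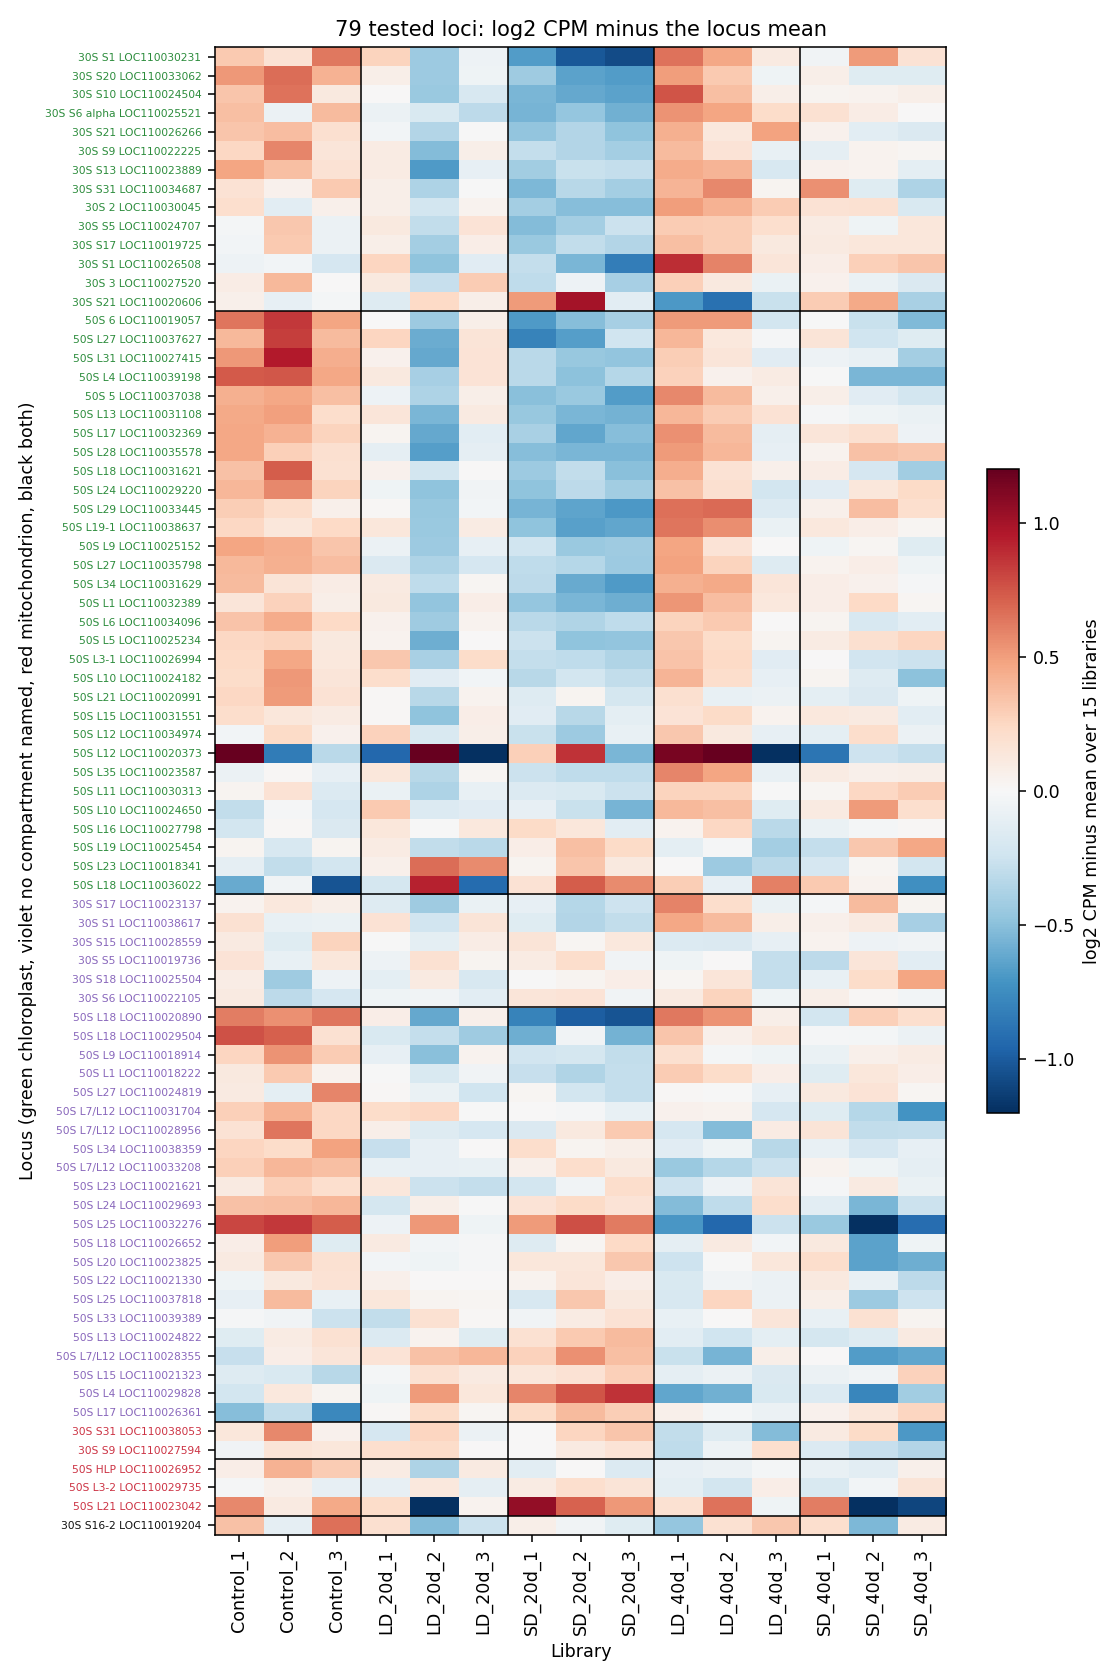
Log2 CPM minus the locus mean (colour scale, red above and blue below the mean) for the 79 tested loci (rows, named by protein and locus, grouped by compartment and subunit) in the 15 libraries (columns). Most chloroplast-named rows are blue in the 3 SD_20d libraries and in LD_20d replicate 2, and red in Control and in LD_40d replicates 1 and 2.

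Small-subunit proteins named as chloroplastic fell in SD_20d against Control for 11 of 14 tested loci, where 17.9% of all tested loci fell. Their median was -0.64. S1, which in bacteria docks messenger RNA on the small subunit, had 4 loci, 3 of them chloroplast-named. Values are given for replicates 1, 2 and 3 in that order, and positions are those of the deposited table, whose genome build is not given in the sources used here. The first (LOC110030231, scaffold NW_018165122.1, 6089 to 36498) had 52.7, 47.7 and 65.8 CPM in Control, 51.1, 31.2 and 40.6 in LD_20d and 26.6, 20.8 and 20.1 in SD_20d. At 40 days its libraries held 66.5, 58.6 and 45.8 CPM in LD_40d and 41.1, 60.4 and 47.8 in SD_40d. All SD_20d libraries were below all others. It fell by 1.30 ± 0.21 (log2, SE; adjusted p = 0.000558) in SD_20d against Control, and SD_40d was higher than SD_20d by 1.14 ± 0.21 (adjusted p = 0.00149). The difference between SD_20d and LD_20d, -0.86 ± 0.21, missed the threshold (adjusted p = 0.072) and passed it without LD_20d replicate 2 and with DESeq2. The second S1 locus (LOC110026508) held 45.2, 46.0 and 41.1 CPM in Control, 38.7, 32.2 and 26.5 in SD_20d and 87.5, 71.5 and 52.4 in LD_40d. Its LD_40d libraries were above all Control libraries, a rise of 0.68 ± 0.21 (adjusted p = 0.0261), which was lost on leaving out any 1 Control library, LD_40d replicate 1 or LD_40d replicate 2. It also rose from SD_20d to SD_40d, by 0.77 ± 0.21 (adjusted p = 0.00986), and in SD_20d against Control its log2 difference was -0.44 ± 0.21 (adjusted p = 0.113). This locus shares a protein accession with the untested S1 locus, which held 5 counts in all. The S1 locus with no compartment named (LOC110038617) had the highest mean level of the 4, 63.3 FPKM, and was called in no comparison. Its CPM were 181, 149.6 and 151 in Control and 144, 125 and 129.8 in SD_20d, where the log2 difference was -0.27 ± 0.16 (adjusted p = 0.199).

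Small-subunit proteins first described as plastid-specific came next. The RNA-binding protein listed as 30S ribosomal protein 2 (LOC110030045, scaffold NW_018164444.1, 22501335 to 22517166) had 96.4, 76.9 and 87.3 CPM in Control, 88.1, 71.9 and 86.0 in LD_20d and 62.9, 58.9 and 58.8 in SD_20d. The 40-day libraries had 119, 112 and 103 in LD_40d and 94.8, 95.3 and 73.8 in SD_40d. At each age the SD libraries lay below the LD libraries without overlap. Averaged over both ages the log2 difference was -0.39 ± 0.09 (adjusted p = 0.0258). That call was lost without LD_20d replicate 1 or 3, SD_20d replicate 2 or 3, LD_40d replicate 1 or 2 or SD_40d replicate 3. It fell in SD_20d against Control (-0.53 ± 0.12, adjusted p = 0.0051) and rose from SD_20d to SD_40d (0.55 ± 0.12, adjusted p = 0.00404). Its rise in LD_40d against Control (0.36 ± 0.12, adjusted p = 0.0447) was lost without Control replicate 2 or 3 or LD_40d replicate 1 or 2, without the filter on low counts, or with the compared libraries alone. The protein listed as 30S ribosomal protein 3 (LOC110027520) was not called in any comparison, and its closest was -0.42 ± 0.16 in SD_20d against Control (adjusted p = 0.0579).

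S20, which binds 16S ribosomal RNA in bacteria, is represented by LOC110033062 (scaffold NW_018164444.1, 35120709 to 35132782). It had 98.8, 109 and 91.9 CPM in Control, 72.3, 50.7 and 66.3 in LD_20d and 51.1, 43.9 and 43.2 in SD_20d. All treated 20-day libraries were below all Control libraries. The falls were -0.66 ± 0.15 in LD_20d (adjusted p = 0.00753), -1.12 ± 0.16 in SD_20d (adjusted p = 0.0002) and -0.61 ± 0.15 in SD_40d (adjusted p = 0.00784), each on the log2 scale with its SE. S10 (LOC110024504), a protein near the decoding site, had 105, 131 and 90.8 CPM in Control, 57.2, 54.6 and 53.5 in SD_20d and 85.3, 86.0 and 87.4 in SD_40d. It fell in SD_20d (-0.99 ± 0.17) and rose again to SD_40d (0.65 ± 0.17), and its difference between LD_40d and LD_20d, 0.62 ± 0.17, missed the threshold (adjusted p = 0.0506). S6 alpha (LOC110025521), which pairs with S18 on the bacterial subunit, had 68.1, 50.3 and 69.1 CPM in Control. It had 50.3, 46.8 and 42.5 CPM in LD_20d and 76.8, 73.3 and 61.6 in LD_40d. It was 35.9, 38.4 and 35.5 in SD_20d and 60.2, 56.2 and 53.0 in SD_40d. The libraries of the ages did not overlap in either photoperiod, and it rose with age under both, by 0.60 ± 0.13 (LD, adjusted p = 0.0318) and 0.62 ± 0.13 (SD, adjusted p = 0.00257). The LD rise was lost without LD_20d replicate 2 or 3 or LD_40d replicate 1 or 2, or with the compared libraries alone.

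S21, a protein needed for initiation in Escherichia coli, had 2 loci, with mean levels of 74.2 FPKM (LOC110026266) and 4.37 FPKM (LOC110020606). LOC110026266 (scaffold NW_018164801.1, 900756 to 908607) had 63.1, 65.2 and 57.6 CPM in Control, 36.2, 39.4 and 35.8 in SD_20d, 67.4, 54.9 and 70.4 in LD_40d and 52.2, 46.0 and 44.6 in SD_40d. It fell in SD_20d (-0.74 ± 0.12, adjusted p = 0.000609), and the average over both ages was lower under SD, -0.37 ± 0.09 (adjusted p = 0.0288), a call lost without LD_20d replicate 1 or 3, SD_20d replicate 1, 2 or 3, LD_40d replicate 1 or SD_40d replicate 2 or 3. It also rose from LD_20d to LD_40d (0.48 ± 0.12, adjusted p = 0.0441), which was lost without LD_20d replicate 2 or 3 or LD_40d replicate 1 or 3, with the replicate block, with limma-voom, or with the compared libraries alone. LOC110020606, with 1.38 to 5.38 CPM over all libraries, was called in no comparison. S17 (LOC110019725), one of the 5 highest members, fell in SD_20d (-0.44 ± 0.14) and rose to SD_40d (0.49 ± 0.14), and the fall was lost without Control replicate 2 or SD_20d replicate 1 or 3. S5 (LOC110024707), which guards decoding accuracy in bacteria, did the same (-0.48 ± 0.14 and 0.45 ± 0.14), with the fall lost without SD_20d replicate 1 and the rise lost without SD_20d replicate 1 or 2 or SD_40d replicate 3. S9 (LOC110022225), S13 (LOC110023889) and S31 (LOC110034687) fell in SD_20d, with log2 fold changes of -0.68 ± 0.17, -0.66 ± 0.19 and -0.61 ± 0.21, and none of them was called from SD_20d to SD_40d. The S13 call was lost without Control replicate 1 or SD_20d replicate 1, and the S31 call without Control replicate 1 or 3 or SD_20d replicate 1, 2 or 3.

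Large-subunit proteins named as chloroplastic fell in SD_20d against Control for 21 of 31 tested loci, where 17.9% of all tested loci fell. Their median was -0.70. Proteins first described as plastid-specific were among the large-subunit loci that fell. The protein listed as 50S ribosomal protein 5 (LOC110037038, scaffold NW_018164444.1, 80050038 to 80062932), found by its description, had 87.2, 89.3 and 83.3 CPM in Control, 62.4, 50.3 and 68.0 in LD_20d and 45.7, 47.7 and 40.9 in SD_20d. In the 40-day groups it had 96.8, 84.3 and 67.8 in LD_40d and 68.0, 59.2 and 55.5 in SD_40d. The Control and 20-day groups did not overlap each other. It fell in LD_20d (-0.52 ± 0.14), SD_20d (-0.95 ± 0.14) and SD_40d (-0.51 ± 0.14), and was lower under SD over both ages (-0.44 ± 0.10, adjusted p = 0.0277). The last call was lost without LD_20d replicate 1 or 3, SD_20d replicate 1, 2 or 3, LD_40d replicate 1 or 2 or SD_40d replicate 2 or 3, the LD_20d call without LD_20d replicate 2 and the SD_40d call without SD_40d replicate 3. The protein listed as 50S ribosomal protein 6 (LOC110019057) had 75.3, 86.6 and 67.0 CPM in Control, 29.9, 33.7 and 36.4 in SD_20d and 47.9, 39.9 and 33.3 in SD_40d. It fell in SD_20d (-1.19 ± 0.20) and was still lower in SD_40d (-0.92 ± 0.20, adjusted p = 0.00356).

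Proteins of the exit tunnel and its rim were next. L4 (LOC110039198, scaffold NW_018253690.1, 82621 to 84292), which lines the tunnel in bacteria, had 133, 134 and 110.1 CPM in Control, 86.5, 60.5 and 88.9 in LD_20d and 63.8, 56.7 and 63.0 in SD_20d. The later libraries held 96.4, 82.4 and 85.3 in LD_40d and 79.6, 54.3 and 54.3 in SD_40d. Every treated library was below every Control library. It fell in all 4 groups, with log2 fold changes of -0.67 ± 0.17, -1.04 ± 0.17, -0.51 ± 0.17 and -0.999 ± 0.17 in LD_20d, SD_20d, LD_40d and SD_40d, and the LD_40d call (adjusted p = 0.0381) was lost without Control replicate 1, Control replicate 2 or any 1 LD_40d library. L24 (LOC110029220), near the tunnel exit, had 154, 174 and 141 CPM in Control and 83.6, 94.1 and 87.0 in SD_20d, fell in LD_20d (-0.60 ± 0.16) and SD_20d (-0.82 ± 0.16) and rose to SD_40d (0.49 ± 0.16). Its LD_20d call was lost without LD_20d replicate 2, and the rise without SD_20d replicate 1, 2 or 3 or SD_40d replicate 2 or 3. L29 (LOC110033445) and L17 (LOC110032369), which sit at the rim in bacteria, fell in SD_20d (-0.82 ± 0.19 and -0.89 ± 0.18) and rose to SD_40d (0.84 ± 0.19 and 0.60 ± 0.18), of which the L17 rise was lost without SD_20d replicate 2 or 3 or SD_40d replicate 2. L23, which docks chaperones at the exit in bacteria, was an exception. Its chloroplast-named locus (LOC110018341) matched a protein of Acorus calamus, and land plant chloroplast genomes usually encode this protein themselves. It had 3.59, 3.13 and 3.30 CPM in Control and 4.04, 6.21 and 5.80 in LD_20d, a rise of 0.68 ± 0.22 (adjusted p = 0.0378) that was lost without Control replicate 1, 2 or 3 or LD_20d replicate 2 or 3, with the replicate block, or with the compared libraries alone. L16 (LOC110027798), usually plastid-encoded too and matched here to Phalaenopsis aphrodite, was called in no comparison and had 12.3, 14.5 and 12.7 CPM in Control and 16.8, 15.8 and 13.1 in SD_20d.

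The stalk recruits translation factors, with L7/L12 held by L10 and L11 at its base. Of 2 chloroplast-named L10 loci, the one with the higher mean level (LOC110024182, 89.0 FPKM) had 154, 188 and 146 CPM in Control, 105, 113 and 107 in SD_20d and 135, 118 and 93.7 in SD_40d. It fell in SD_20d (-0.59 ± 0.16) and in SD_40d (-0.49 ± 0.16), the latter lost without Control replicate 2 or SD_40d replicate 2 or 3, or with the compared libraries alone. The other (LOC110024650, 36.7 FPKM) had 34.5, 41.8 and 36.7 CPM in Control, 39.5, 35.0 and 28.6 in SD_20d and 45.4, 60.2 and 48.7 in SD_40d. Its Control and SD_20d libraries overlapped, with a log2 difference of -0.13 ± 0.18 (adjusted p = 0.611), and it rose from SD_20d to SD_40d by 0.58 ± 0.18 (adjusted p = 0.022), which was lost without SD_20d replicate 2 or 3 or SD_40d replicate 2. L11 (LOC110030313), among the 5 highest, had 98.6, 108 and 86.0 CPM in Control and 86.0, 84.4 and 80.3 in SD_20d, values that overlap, and rose to SD_40d (0.40 ± 0.12), a call lost without SD_20d replicate 2 or 3 or SD_40d replicate 2 or 3. The L12 locus LOC110034974 was called in no comparison. The other, LOC110020373, lies wholly within a locus on the opposite strand that has 12067 counts, and its 1.25 to 9.94 CPM are uncertain, since no source used here states a strand setting.

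L5, L18 and L25 bind 5S ribosomal RNA in bacteria. L5 (LOC110025234, scaffold NW_018164737.1, 77161 to 88279) had 265, 269 and 243 CPM in Control, 231, 149 and 224 in LD_20d and 187, 159.7 and 162 in SD_20d. By 40 days it held 279, 260.4 and 229 in LD_40d and 239.7, 257 and 268 in SD_40d. SD_20d lay below Control and SD_40d without overlap, and the fall was -0.61 ± 0.15 (adjusted p = 0.00619), the rise to SD_40d 0.59 ± 0.15 (adjusted p = 0.00725). The chloroplast-named L18 locus with most counts (LOC110031621) fell in LD_20d (-0.49 ± 0.16), SD_20d (-0.85 ± 0.16) and SD_40d (-0.60 ± 0.16), and another (LOC110036022), with 0.944 to 3.96 CPM, was not called. For LOC110031621 the LD_20d call was lost without Control replicate 1 or 2 or LD_20d replicate 1, 2 or 3, or with the compared libraries alone, and the SD_40d call without SD_40d replicate 3, or with the compared libraries alone.

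Among the remaining large-subunit proteins, L28 (LOC110035578, scaffold NW_018218194.1, 8927 to 9791) had 194, 171 and 160.3 CPM in Control, 130.0, 88.8 and 130.4 in LD_20d and 98.1, 95.5 and 95.6 in SD_20d. At 40 days it had 199.9, 184 and 131 in LD_40d and 145, 179 and 176 in SD_40d. It fell in LD_20d (-0.59 ± 0.17, lost without Control replicate 1 or LD_20d replicate 2) and SD_20d (-0.86 ± 0.17) and rose to SD_40d (0.79 ± 0.17, adjusted p = 0.00345), where its log2 difference from Control was -0.07 ± 0.17 (adjusted p = 0.764). L27, which reaches into the peptidyl transferase centre, had 3 loci, 2 of them chloroplast-named. LOC110035798 had 83.5, 85.9 and 82.3 CPM in Control, 56.4, 49.2 and 55.4 in LD_20d and 51.5, 50.4 and 47.2 in SD_20d, and fell in both 20-day groups (-0.64 ± 0.13 and -0.75 ± 0.13). It also fell in SD_40d against Control (adjusted p = 0.036) and rose from SD_20d to SD_40d (adjusted p = 0.0303). That fall was lost without any 1 Control library or SD_40d replicate 2 or 3. The rise was lost without SD_20d replicate 2 or 3 or SD_40d replicate 2. LOC110037627 fell in SD_20d (-1.10 ± 0.23), and its LD_20d difference was -0.56 ± 0.22 (adjusted p = 0.0847). The L27 locus with no compartment named (LOC110024819, 37.9 FPKM) was called in no comparison, with a log2 difference of -0.38 ± 0.16 in SD_20d (adjusted p = 0.0722). L9 (LOC110025152), whose loss raises frameshifting in Escherichia coli, had 187, 182 and 169.9 CPM in Control, 128, 99.6 and 126 in LD_20d and 114, 99.1 and 100.1 in SD_20d. The 3 Control libraries were above all 20-day libraries, with falls of -0.61 ± 0.13 and -0.78 ± 0.13. L9 also fell in SD_40d against Control, with 130, 137 and 122 CPM in SD_40d (adjusted p = 0.0122). L34 (LOC110031629) had 85.1, 63.7 and 80.4 CPM in LD_20d, 63.5, 51.8 and 49.4 in SD_20d, 106, 108 and 87.4 in LD_40d and 83.3, 81.5 and 78.1 in SD_40d. SD libraries lay below LD libraries without overlap at both ages, with log2 differences of -0.48 ± 0.14 (adjusted p = 0.105) at 20 days and -0.31 ± 0.14 (adjusted p = 0.291) at 40 days, and -0.39 ± 0.10 (adjusted p = 0.0353) over both ages. The last call was lost without LD_20d replicate 1 or 3, SD_20d replicate 2 or 3, LD_40d replicate 1 or 2 or SD_40d replicate 2 or 3. L1 (LOC110032389), of the stalk on the other side of the subunit, fell in SD_20d (-0.70 ± 0.15) and rose to SD_40d (0.65 ± 0.15).

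**Figure D5:**
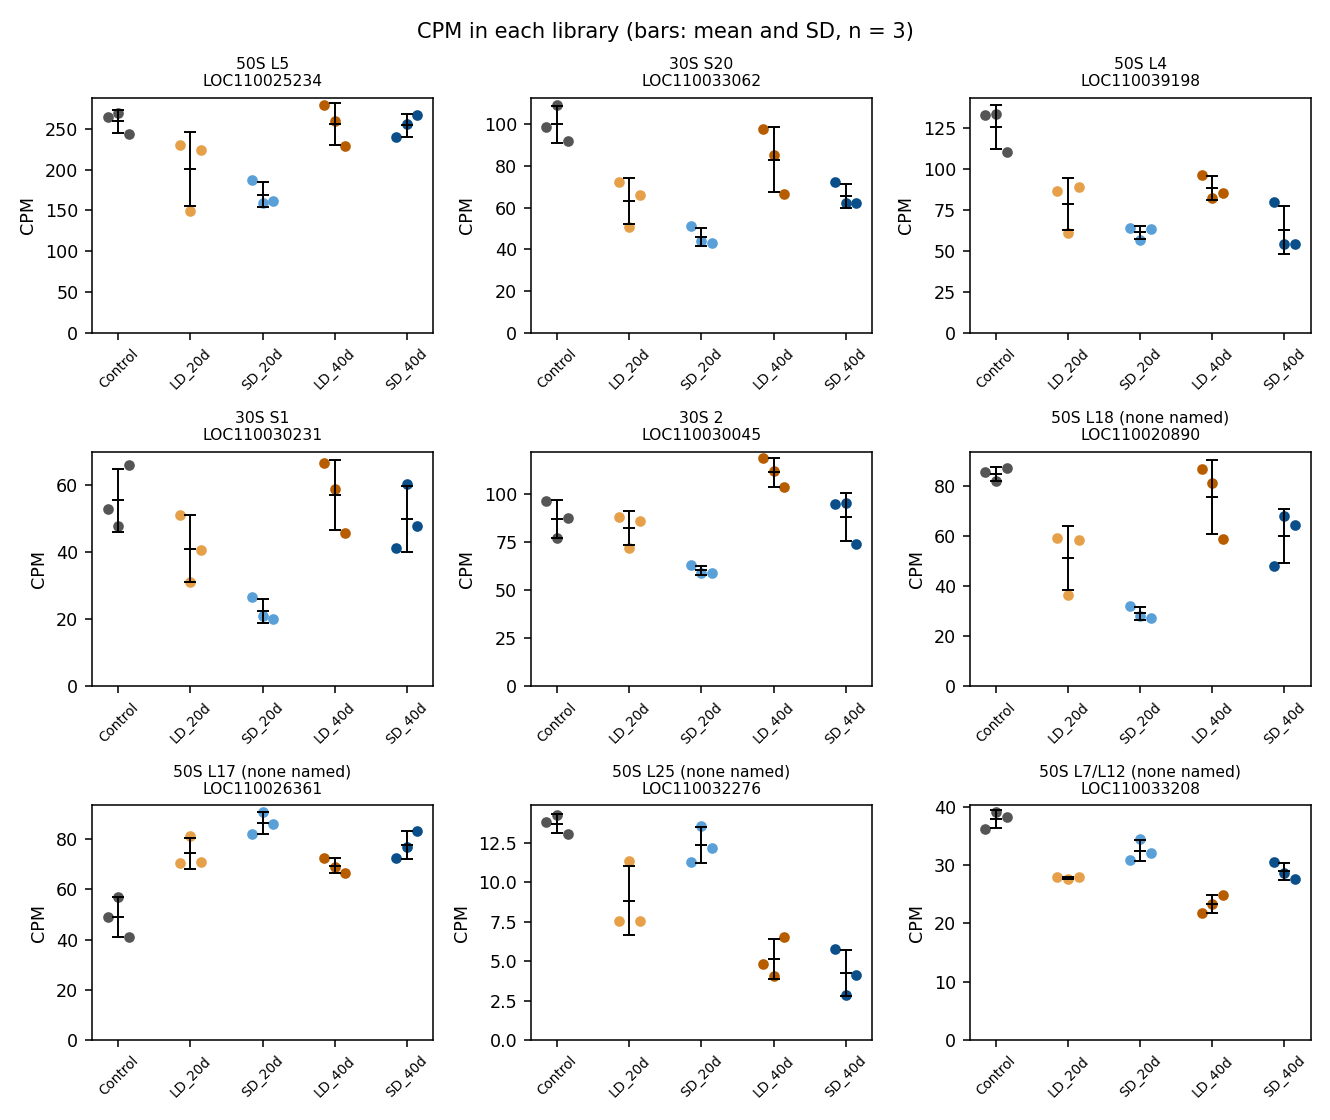
CPM of 9 loci in each library, with 1 point per library and bars at the mean and SD (n = 3), each axis starting at 0. S1 and the L18 locus LOC110020890 are lowest in SD_20d, L17 (LOC110026361) is lowest in Control, and L25 is lowest at 40 days.

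Loci with no compartment named moved in both directions. The L18 locus LOC110020890 (scaffold NW_018164549.1, 5720251 to 5738158), matched to Aromatoleum aromaticum, had the steepest fall of any tested member in SD_20d. Its CPM were 85.4, 81.9 and 87.2 in Control, 59.1, 36.6 and 58.4 in LD_20d and 32.0, 28.2 and 27.2 in SD_20d. The LD_40d libraries held 86.9, 81.2 and 58.7 CPM and the SD_40d libraries 47.9, 68.0 and 64.2 CPM. SD_20d lay below every other library. The fall was -1.54 ± 0.20 (adjusted p = 0.00011) and the rise to SD_40d 1.04 ± 0.19 (adjusted p = 0.00155). SD_20d was -0.82 ± 0.19 against LD_20d (adjusted p = 0.0681), past the threshold only with DESeq2 and without LD_20d replicate 2, and over both ages SD was lower than LD, at -0.57 ± 0.14 (adjusted p = 0.0321). This last call was lost without LD_20d replicate 1 or 3, SD_20d replicate 2 or 3, LD_40d replicate 1 or 2 or SD_40d replicate 2 or 3, with the replicate block, or with the compared libraries alone. The other L18 loci of this kind had mean levels of 5.34 FPKM (LOC110029504) and 6.58 FPKM (LOC110026652), against 58.5 FPKM for LOC110020890. LOC110029504 had 7.34, 7.08 and 4.88 CPM in Control, 3.76, 3.48 and 3.16 in LD_20d and 2.81, 4.16 and 2.85 in SD_20d and fell in both (-0.89 ± 0.22 and -0.97 ± 0.22), and LOC110026652 was not called.

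L17, in contrast, was higher in every treated group. Its locus with no compartment named (LOC110026361, scaffold NW_018164810.1, 119871 to 162838) had 49.1, 56.9 and 41.0 CPM in Control, 70.6, 81.4 and 71.0 in LD_20d and 82.1, 91.0 and 86.0 in SD_20d. At 40 days its libraries held 72.7, 68.8 and 66.7 in LD_40d and 72.5, 77.0 and 83.4 in SD_40d. All 12 treated libraries were above all Control libraries. The rises were 0.60 ± 0.12, 0.82 ± 0.12, 0.50 ± 0.12 and 0.66 ± 0.12, in the same order, each called in all 12 alternatives. The chloroplast-named L17 locus fell in SD_20d, as given above. L15 (LOC110021323), a late assembly protein in bacteria, rose in SD_20d (0.42 ± 0.11, adjusted p = 0.00981), with 30.3, 29.8 and 26.7 CPM in Control and 37.1, 38.1 and 41.1 in SD_20d. L4 (LOC110029828, matched to Magnetospirillum) had 14.2, 18.1 and 16.9 CPM in Control, 24.9, 28.0 and 30.4 in SD_20d and 14.8, 9.60 and 12.4 in SD_40d. It rose in SD_20d (0.76 ± 0.19) and fell from there to SD_40d (-1.18 ± 0.19, adjusted p = 0.000891), the opposite signs to the medians of the chloroplast-named list.

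Further loci of this kind were lower at 40 days. L25 (LOC110032276, scaffold NW_018165343.1, 374789 to 391304) had 13.8, 14.2 and 13.1 CPM in Control, 7.53, 11.3 and 7.56 in LD_20d and 11.3, 13.5 and 12.2 in SD_20d. In the 40-day groups it had 4.80, 4.05 and 6.55 in LD_40d and 5.76, 2.84 and 4.13 in SD_40d. The 40-day libraries were below all Control and all 20-day libraries, and the falls were -1.41 ± 0.25 in LD_40d and -1.68 ± 0.26 in SD_40d against Control and -1.53 ± 0.26 from SD_20d to SD_40d. The second L25 locus (LOC110037818) was not called and had 10.1, 14.1 and 10.1 CPM in Control and 11.4, 7.96 and 9.07 in SD_40d. L24 (LOC110029693) fell in SD_40d against Control (-0.67 ± 0.17) and in LD_40d (-0.54 ± 0.17, adjusted p = 0.0279), and from SD_20d to SD_40d (-0.49 ± 0.17, adjusted p = 0.0338). The LD_40d call was lost without Control replicate 1, 2 or 3 or LD_40d replicate 1 or 2, or with the compared libraries alone, and the SD_20d to SD_40d call without SD_20d replicate 1, 2 or 3 or SD_40d replicate 2 or 3. L34 (LOC110038359) fell in LD_20d, LD_40d and SD_40d, with log2 fold changes of -0.45 ± 0.13, -0.50 ± 0.13 and -0.46 ± 0.13. The first call was lost without Control replicate 3 or LD_20d replicate 1 or 2, or with the compared libraries alone, the second without Control replicate 3, and the last without Control replicate 3 or SD_40d replicate 2, or with the compared libraries alone. L13 (LOC110024822), an early assembly protein in bacteria, had 26.1, 28.6 and 29.9 CPM in SD_20d and 19.8, 20.7 and 24.9 in SD_40d, a fall of -0.37 ± 0.12 (adjusted p = 0.027) that was lost without SD_20d replicate 2 or 3 or SD_40d replicate 1 or 2, or with the compared libraries alone.

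L7/L12, the stalk protein itself, had 4 loci with no compartment named, all matched to Liberibacter africanus. LOC110033208 (scaffold NW_018165551.1, 165520 to 171242) had 36.2, 39.2 and 38.2 CPM in Control, 27.9, 27.6 and 28.0 in LD_20d and 31.0, 34.4 and 32.1 in SD_20d. The later libraries held 21.8, 23.4 and 24.9 in LD_40d and 30.6, 28.7 and 27.6 in SD_40d. All treated libraries were below all Control libraries, and at each age SD lay above LD. It fell in LD_20d (-0.44 ± 0.09), LD_40d (-0.69 ± 0.09) and SD_40d (-0.39 ± 0.09). Over both ages it was the single member called higher under SD (0.27 ± 0.06, adjusted p = 0.0323). That call was lost without LD_20d replicate 1 or 3, SD_20d replicate 2 or 3, LD_40d replicate 1 or 2 or SD_40d replicate 2 or 3, with the replicate block, or with the compared libraries alone. LOC110031704 fell in SD_40d against Control (-0.71 ± 0.16), with 13.0, 14.2 and 12.6 CPM in Control and 9.55, 8.32 and 6.42 in SD_40d. LOC110028355 fell from SD_20d to SD_40d (-0.80 ± 0.20), with 18.3, 22.1 and 19.4 CPM in SD_20d against 15.1, 9.42 and 9.73 in SD_40d, and LOC110028956 was not called. Small-subunit loci with no compartment named, 6 in number, gave no call in LD_20d, SD_20d, LD_40d or SD_40d against Control. Of all tested loci, 12.6%, 17.9%, 13.6% and 19.5% fell there, in the same order, and 11.4%, 17.2%, 13.9% and 18.8% rose. The 6 loci are too few to set against these shares, so the lack of calls does not show that they were stable.

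Of the 5 mitochondrial loci, which are too few to set against the overall shares, none was called in LD_20d or LD_40d and 1 in each of SD_20d and SD_40d against Control, where 35.1% and 38.3% of all tested loci were called. HLP (LOC110026952), an L14-type protein in Arabidopsis, had 29.7, 37.5 and 34.7 CPM in Control and 25.8, 28.2 and 25.1 in SD_20d and fell by 0.37 ± 0.13 (adjusted p = 0.0462). That call was lost without Control replicate 2 or 3 or SD_20d replicate 1, 2 or 3, without the filter on low counts, or with the replicate block. S9 (LOC110027594) had 28.1, 32.2 and 31.8 CPM in Control and 25.7, 23.9 and 22.6 in SD_40d and fell by 0.35 ± 0.13 (adjusted p = 0.0439), and it fell from SD_20d to SD_40d as well (-0.35 ± 0.13). The first of these calls was lost without Control replicate 2 or 3 or SD_40d replicate 2 or 3, with DESeq2, with RLE scaling, without the filter on low counts, with the replicate block, with limma-voom, or with the compared libraries alone, and the second without SD_20d replicate 2 or 3 or SD_40d replicate 2 or 3, with DESeq2, or with the replicate block. The chloroplast-named S9 locus had its fall in SD_20d. L3-2 (LOC110029735), L21 (LOC110023042), S31 (LOC110038053) and the locus placed in both organelles, S16-2 (LOC110019204), were called in no comparison. The sources differ on L3-2, which the Swiss-Prot text places in the mitochondrion and the description in the chloroplast. L21 and S16-2 were scarce, at 0.183 to 2.31 and 1.01 to 2.44 CPM.

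Of 50 protein names, 23 were carried by more than 1 locus and covered 55 members. Within 1 compartment label, 10 names were carried by more than 1 locus and covered 25 members. Near-identical loci can split reads, and 6 members share a protein accession with another member. The gap between the highest and the lowest group mean of a locus was 0.21 to 1.33 in log2 CPM over the 45 tested chloroplast-named loci (median 0.82), and that of the 28 loci with no compartment named was 0.18 to 1.71 (median 0.50).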

How the data were processed

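RNA was sequenced from leaves in 15 libraries, 3 per group, each of 3 pooled plants. The deposited table gives, per the file headers, a read count and an FPKM value for each of 21144 loci in each library, with protein match texts. The authors' FPKM followed the deposited count, the gene length and the library total within 0.01 reads for all 82 members. Per the submitters' processing notes the tools were HISAT2 2.0.5, HTSeq 0.9.1, DESeq 1.30.0 and cutadapt 1.15, with no role stated. Strand setting and genome build are not given in the sources used here.

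From the deposited counts, loci with low counts were removed (filterByExpr), libraries were scaled by TMM, and all 15 libraries were fitted by group means with edgeR 4.0.16 in R 4.3.3. The quasi-likelihood test was used for 10 comparisons, with p-values adjusted by Benjamini-Hochberg over the 16700 loci tested, and a locus was called at an adjusted p under 0.05. The standard error of a log2 fold change is its size divided by the square root of F. Log2 CPM used a prior count of 2. FPKM served for levels between genes. The steps were tested on simulated data.

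Members named with values were the 4 with the smallest p in each photoperiod comparison, up to 5 called members per direction in the other comparisons, the 5 with the highest FPKM, and loci sharing their names. Other members described were chosen after their values were seen. The members and lists were chosen with earlier results of these data known. Lists set beside them were cytosolic and other organelle ribosomal proteins, organelle translation factors, tRNA ligases and assembly factors, plastid transcription, import and chaperonins, and markers of leaf, dividing, meristem, guard and vascular cells. Alternatives were DESeq2 1.42.0, voom of limma 3.58.1, RLE scaling, no filter, a replicate block, the compared libraries alone and leaving out each library. The p-values measure the spread between pooled libraries.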

Additional observations from a re-analysis of the deposited data

How the results depend on the processing

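Of 45 named changes that were called, 31 were called in every alternative, 14 were lost in at least 1 and 0 changed sign. The named changes were picked for their small p, so they do not stand for all calls. Over all called members, those kept in every alternative against Control were 8 of 24 in LD_20d, 33 of 40 in SD_20d, 3 of 8 in LD_40d and 10 of 22 in SD_40d. They were 0 of 2 in LD_40d against LD_20d, 16 of 30 in SD_40d against SD_20d and 0 of 6 in the mean of SD against LD. Of 9 named differences that were not called, 8 passed in at least 1 alternative. Members called with DESeq2 were 4 in SD_20d against LD_20d, 16 in the mean of SD against LD and 13 in LD_40d against LD_20d. In that last comparison, RLE scaling gave 3, the replicate block 1, limma-voom 1 and the compared libraries alone 0. Shares of all tested loci called under these alternatives are not given here. The cause was not tested.

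Leaving out 1 library at a time gave 0 to 12 members called in SD_20d against LD_20d, 0 to 6 in SD_40d against LD_40d and 0 to 18 in their mean. Against Control it gave 10 to 23 in LD_20d, 34 to 38 in SD_20d, 4 to 11 in LD_40d and 12 to 32 in SD_40d. With age it gave 0 to 22 under LD and 17 to 30 under SD, and 0 to 2 for the interaction. Shares of all tested loci called in these fits are not given here either. The chloroplast-named counts, whose alternatives were chosen after seeing the data, were 27 to 31 falls in SD_20d, 5 to 17 falls in LD_20d and 13 to 20 rises from SD_20d to SD_40d. The median of all loci moved by over 0.1 only without SD_40d replicate 1, by 0.117.

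Replicate numbers did not pair the libraries: the deviations of same-numbered libraries correlated at -0.286 to 0.364, with 9 of 30 pairs over 0.1, and 17 of 60 pairings of a library with another group were best with its own number. The fit with the replicate block lost 3 of the 45 named calls, and called 22 members in LD_20d, 20 in SD_40d (both against Control) and 29 in SD_40d against SD_20d.

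Low counts limit the scarce members: the 3 untested loci held 5, 37 and 64 counts over all libraries, and a difference in them was not detectable at this depth. Intervals other than the spread between libraries were not computed.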
